A study of Homo sapiens with 30 samples.

Results

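The comparison set HCT116 cells with p53 (WT) against isogenic HCT116 cells without it (p53KO), both kept in 10 nM actinomycin D for 16 hours. HCT116 is an established line from a colon adenocarcinoma. The 6 arrays of these 2 groups, 3 per genotype, were chosen by their titles out of 30 in the series, and WT and p53KO arrays of the same replicate number were treated as pairs. The 18 other arrays used were WT and p53KO cells, 3 of each, left untreated or kept in 1 or 100 nM actinomycin D for the same time. The 6 nutlin-3 arrays of the series were normalised together with the others but left out of the main fit. They were fitted only in the alternative over all 30 arrays. All cells were seeded overnight and grown in McCoy medium with bovine serum. The labels call the lines isogenic and do not say whether the p53KO line is 1 clone, or whether the arrays of a group came from separate cultures. In the main fit, the p-values measure how much WT minus p53KO differences varied between pairs, pooled over the untreated and actinomycin D arrays. Variation that both arrays of a pair shared does not enter them. Part of the variation between pairs may be technical.

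p53 is a transcription factor that damage to DNA or to ribosome production stabilises. It switches on genes for cell cycle arrest, DNA repair, metabolism and cell death, among them MDM2, whose product marks p53 for destruction. It lowers many cell cycle genes indirectly: the product of its target CDKN1A inhibits cyclin-dependent kinases, which lets RB-family proteins hold E2F and the DREAM complex on cell cycle promoters as repressors. Actinomycin D binds DNA and blocks transcription, and at low doses it acts first on ribosomal RNA genes.

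Levels are normalised log2 intensities of the deposited bead signals, so a difference of 1 is 2-fold, and levels of different probes cannot be set against each other. Of 22177 probes, 12232 were detected (detection p under 0.01) on all 3 arrays of at least 1 genotype at 10 nM, and with 1 probe kept per gene they gave 10996 features. The 6 arrays were alike in signal: the 75th percentile of raw intensity ran from 261.3 to 283.9 in WT and from 254.8 to 305.6 in p53KO cells, and detected probes from 12406 to 12629 and from 12289 to 12342. The WT array of replicate 2 lay on slide 1, and the other 5 shared slide 5. The genotype labels were read against p53 targets. BTG2 and FDXR are not analysed here. CDKN1A had levels of 14.18, 14.14 and 14.09 on WT arrays 1 to 3 and of 10.76, 10.64 and 10.93 on the p53KO arrays. MDM2 had 7.48, 7.23 and 7.84 in WT cells and 5.29, 5.29 and 5.27 in p53KO cells. Neither gene's groups overlapped, and each of the 6 arrays sat on the side of its label. Among the untreated arrays, replicate 1 of both genotypes stood apart: ATF3 had 11.42 in WT and 11.30 in p53KO cells there, against 7.84 to 8.49 on the other 4. On the nutlin-3 arrays CDKN1A had 13.78, 13.85 and 10.62 in WT and 10.38, 10.38 and 13.89 in p53KO cells, so the arrays numbered 3 went against their labels.

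At 10 nM, 3942 of the 10996 features differed between the genotypes at an adjusted p under 0.05 (called), which is 35.8% of those tested. WT cells were higher in 2013 (18.3%) and lower in 1929 (17.5%). Differences of at least 2-fold were called in 350 features higher in WT (3.18%) and 312 lower (2.84%), and of at least 4-fold in 75 and 25. All 3 WT values lay above all 3 p53KO values in 2752 features (25%) and below them in 2836 (25.8%). Detection was lost outright in few genes: 159 features were detected on all WT arrays and on no p53KO array, and 52 the other way. The median difference over all features was -0.01. Without the pairing, the same fit called 2169 features, all of them among the 3942. Leaving out the second pair of arrays left 2495 calls. With slide as a block beside the pairs 3252 features were called, and 3335 from the 5 arrays of slide 5 alone, unpaired.

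The 12 genes with the highest differences were GDF15, TP53I3, TP53INP1, CASP4, PROM1, SORCS2, SESN1, CEACAM1, CYP4F3, ACTA2, CDKN1A and ELAPOR1, from 4.62 down to 3.27. The 12 with the lowest were TM4SF18, HJURP, FBXO5, CENPA, CDCA3, DTL, CKAP2L, CCNA2, MCM10, SKA1, CDT1 and MTFR2, from -2.87 up to -2.20. The first set holds known p53 targets such as GDF15, TP53I3, SESN1 and CDKN1A. In the second, TM4SF18, which encodes a membrane protein of the tetraspanin-like L6 family, stood beside genes of DNA replication and chromosome segregation. The rule took only genes whose groups did not overlap, so their separation is no finding. PROM1 and SORCS2 were detected on no p53KO array at 10 nM, CEACAM1 and CYP4F3 on 1 and ELAPOR1 on 2. TM4SF18 was detected on no WT array. The differences of these genes are set against background, so their places in the order are not exact.

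**Figure D1:**
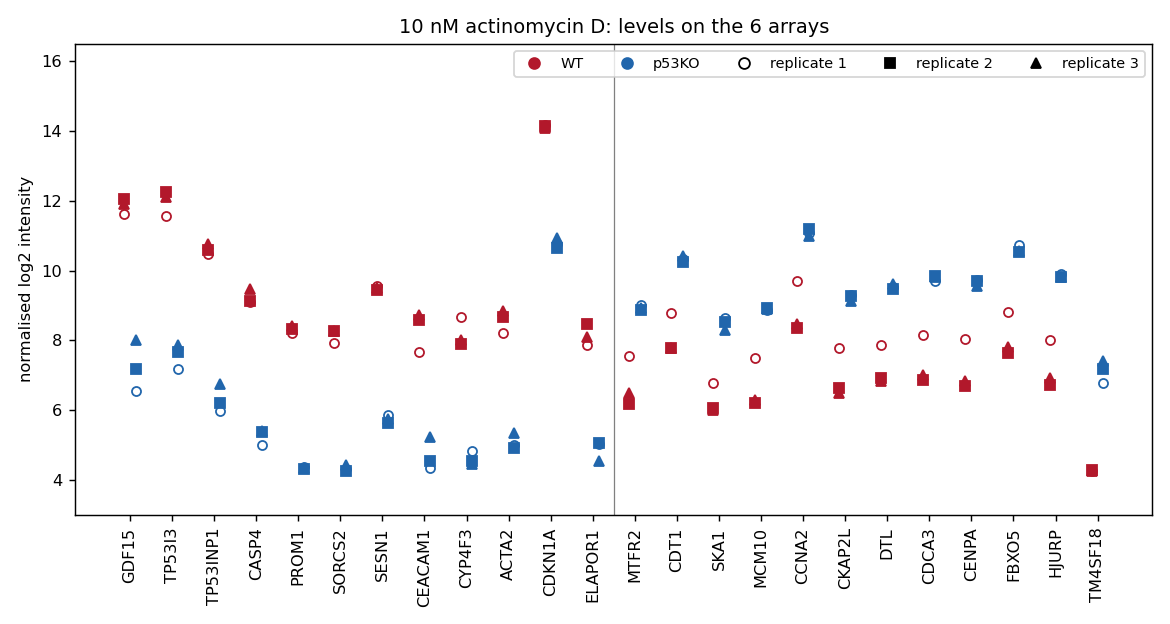
Normalised log2 intensity (y axis) of the 12 genes with the highest and the 12 with the lowest WT minus p53KO difference at 10 nM, with 1 point per array, WT in red and p53KO in blue, and the replicate number by marker. In the cell cycle genes on the right the open red circles, WT replicate 1, sit between the other 2 WT arrays and the p53KO arrays.

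Arrest and feedback targets of p53 were higher in WT cells. Of 20 genes on this list, 19 had a probe and 17 were kept. WT was higher in 14 of the 17 and lower in 1 (PTP4A1), against 18.3% and 17.5% of all features. The median difference was 1.67 against -0.01 over all features. CDKN1A, whose product p21 halts the cell cycle, differed by 3.36 ± 0.13 (SE; adjusted p = 1.3e-08), or 10.3-fold, and its second probe by 2.62. MDM2 differed by 2.23 ± 0.16 (adjusted p = 6.9e-07), or 4.71-fold. SESN1, a stress gene that restrains mTORC1 signalling, had levels of 9.55, 9.44 and 9.51 in WT and of 5.85, 5.64 and 5.73 in p53KO cells, and it differed by 3.76 ± 0.26 (adjusted p = 5.9e-07). TP53INP1, which promotes p53 phosphorylation and autophagy, had 10.48, 10.60 and 10.75 against 5.96, 6.20 and 6.75, a difference of 4.31 ± 0.27 (adjusted p = 2.9e-07). PPM1D, the phosphatase that switches p53 signalling off, differed by 1.73 ± 0.12. FBXW7, which encodes a ubiquitin ligase subunit that degrades cyclin E and MYC proteins, differed by 2.21 ± 0.14 on its brightest probe, with 1.60 and -0.29 on its other probes. E2F7, an atypical E2F repressor that p53 can induce, was not called at 0.26 ± 0.17 (adjusted p = 0.25). Its WT levels were 8.50, 7.69 and 7.63 and its p53KO levels 7.78, 7.57 and 7.67, so only WT replicate 1 stood out.

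Among apoptosis genes the differences were uneven. Of 20 listed genes, 15 were kept, 12 of them higher in WT cells (18.3% over all features) and 0 lower (17.5%). The median was 0.57. The steepest was TP53I3, an oxidoreductase gene tied to reactive oxygen species, with 11.57, 12.26 and 12.11 in WT and 7.17, 7.68 and 7.88 in p53KO cells. That is 4.40 ± 0.29 (adjusted p = 4.2e-07), and 2.54 on its second probe. FAS, the receptor for the death ligand FASL, had 6.93, 6.93 and 6.98 against 4.83, 4.70 and 4.49, and it was detected on 1 of the 3 p53KO arrays. Its difference was 2.27 ± 0.21 (adjusted p = 6.1e-06). PIDD1, a scaffold for caspase-2 activation, differed by 2.18 ± 0.17, APAF1, the core of the apoptosome, by 1.58 ± 0.14, and the TRAIL receptor gene TNFRSF10B by 1.20 ± 0.11. BAX, the pore-forming protein's gene, had 6.84, 7.03 and 7.05 in WT and 6.38, 6.35 and 6.24 in p53KO cells, a called difference of 0.65 ± 0.11 (adjusted p = 5.0e-04). BBC3, which encodes PUMA, differed by 0.45 and was called, whereas PMAIP1, which encodes NOXA, had 0.16 and was not. MCL1, the short-lived survival factor, was not called at -0.20 ± 0.10 (adjusted p = 0.15).

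Repair and metabolism targets were higher in WT cells in 16 of 18 kept genes (18.3% over all features) and lower in 0 (17.5%). Their median was 1.17. DDB2, which finds ultraviolet damage in DNA, had 8.45, 8.29 and 8.44 in WT and 6.19, 6.37 and 6.17 in p53KO cells. It differed by 2.15 ± 0.14 (adjusted p = 3.2e-07). XPC, its partner in global repair, differed by 1.25 ± 0.16 (adjusted p = 6.7e-05). RRM2B, the p53-inducible subunit of ribonucleotide reductase, had 9.90, 9.90 and 9.92 against 7.84, 7.88 and 8.01, a difference of 2.00 ± 0.12 (adjusted p = 2.8e-07). The replication subunit of the same enzyme, RRM2, moved the other way, with a difference of -1.80. TIGAR, which diverts glucose towards the pentose phosphate pathway, differed by 1.53 ± 0.14, PRKAB1, a subunit of the energy sensor AMPK, by 1.19 ± 0.12, and the antioxidant enzyme gene GPX1 by 0.81 ± 0.09.

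Secreted and surface products followed, with 11 of 15 kept genes higher in WT (18.3% over all features) and 0 lower (17.5%). Their median was 1.13. GDF15, a stress cytokine of the TGF-beta family, had the highest difference of all features. Its levels were 11.62, 12.06 and 11.91 in WT and 6.54, 7.17 and 8.02 in p53KO cells, so the p53KO arrays spread more widely than the WT arrays. The difference was 4.62 ± 0.25 (adjusted p = 1.2e-07), or 24.6-fold. LIF, a cytokine of the interleukin-6 family, differed by 1.64 ± 0.11, the growth factor gene PGF by 1.51 ± 0.18, and ISCU, a scaffold for iron-sulphur clusters that was on this list, by 1.19 ± 0.11. EPS8L2, linked to actin remodelling, was not detected on any p53KO array, and its WT level exceeded that bound at least 1.89-fold (adjusted p = 3.5e-05).

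**Figure D2:**
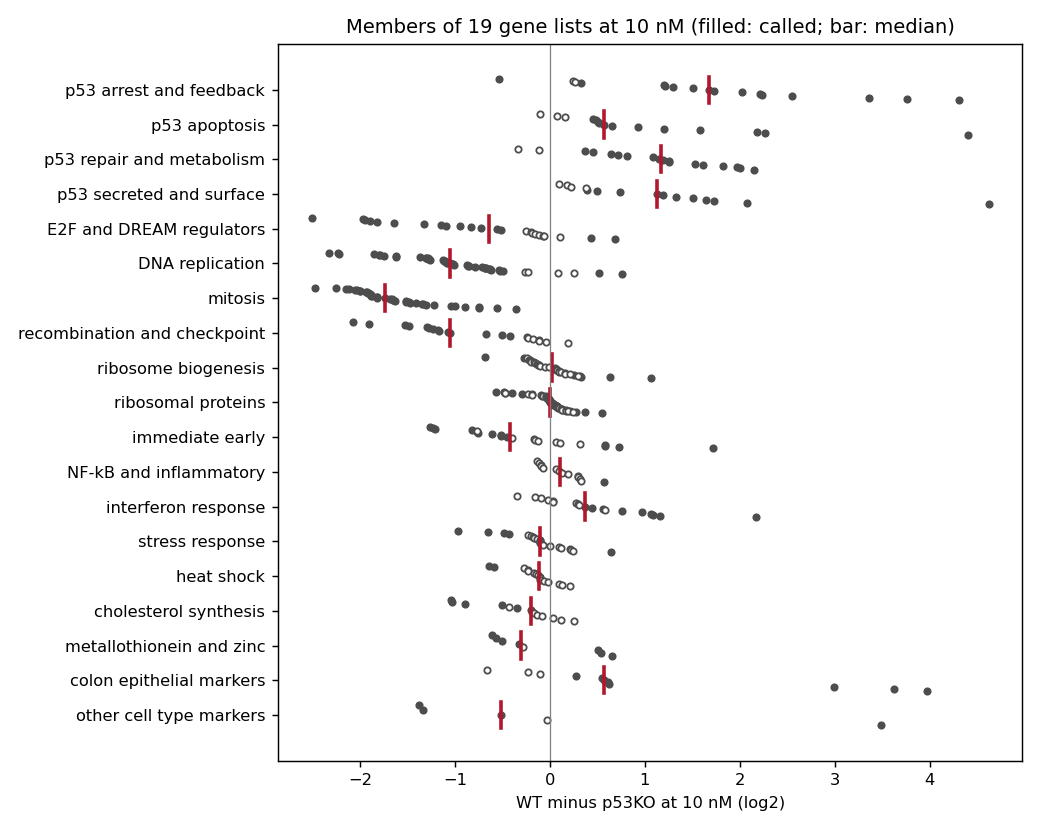
WT minus p53KO difference at 10 nM (x axis, log2) of every kept member of the 19 gene lists (y axis), with filled points for members called at an adjusted p under 0.05 and a red bar at each list's median. The 4 p53 lists have medians from 0.57 to 1.67 and the cell cycle lists from -1.74 to -0.64. The other lists run from -0.52 for other cell type markers to 0.57 for colon epithelial markers.

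Cell cycle genes were lower in WT cells. The promoters of 7 of them are printed here because the motifs that the DREAM complex and E2F factors are known to read stand in them at different places. Each stretch runs from 150 bases before to 50 bases after the gene's start in RefSeq (build GRCh38.p14), 5′ to 3′ on the gene's own strand. Capitals mark 3 motifs on either strand: the cell cycle homology region (CHR, TTTGAA), the CCAAT box that NF-Y binds, and an E2F-like motif (TTTNNCGC, where N is any base). The first 4 are genes of mitosis, at chr2:233854486-233854685 (minus strand, HJURP), chr12:6851237-6851436 (minus strand, CDCA3), chr2:26785906-26786105 (plus strand, CENPA) and chr16:23678739-23678938 (plus strand, PLK1).
HJURP: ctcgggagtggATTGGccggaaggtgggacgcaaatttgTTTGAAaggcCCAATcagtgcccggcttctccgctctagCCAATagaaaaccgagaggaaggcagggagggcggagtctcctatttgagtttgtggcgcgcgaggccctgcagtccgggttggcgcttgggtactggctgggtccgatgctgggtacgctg
CDCA3: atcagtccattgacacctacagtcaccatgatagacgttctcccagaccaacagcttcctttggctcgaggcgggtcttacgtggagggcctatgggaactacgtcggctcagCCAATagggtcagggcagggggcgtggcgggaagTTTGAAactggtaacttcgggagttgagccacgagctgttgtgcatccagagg
CENPA: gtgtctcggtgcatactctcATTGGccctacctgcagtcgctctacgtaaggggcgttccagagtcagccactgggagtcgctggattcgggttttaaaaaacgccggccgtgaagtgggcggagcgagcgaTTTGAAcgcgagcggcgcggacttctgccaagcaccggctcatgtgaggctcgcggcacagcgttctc
PLK1: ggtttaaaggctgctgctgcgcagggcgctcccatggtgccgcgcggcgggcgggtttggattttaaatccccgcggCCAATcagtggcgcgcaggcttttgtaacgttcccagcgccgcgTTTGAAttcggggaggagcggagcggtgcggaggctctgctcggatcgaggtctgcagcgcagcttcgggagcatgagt
The other 3 are genes of the start of S phase, at chr1:212035598-212035797 (plus strand, DTL), chr1:23531184-23531383 (minus strand, E2F2) and chr16:88803639-88803838 (plus strand, CDT1).
DTL: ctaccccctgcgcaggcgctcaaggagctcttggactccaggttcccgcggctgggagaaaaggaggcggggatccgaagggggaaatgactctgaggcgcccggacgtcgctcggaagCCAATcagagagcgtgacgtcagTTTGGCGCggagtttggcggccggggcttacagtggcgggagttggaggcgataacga
E2F2: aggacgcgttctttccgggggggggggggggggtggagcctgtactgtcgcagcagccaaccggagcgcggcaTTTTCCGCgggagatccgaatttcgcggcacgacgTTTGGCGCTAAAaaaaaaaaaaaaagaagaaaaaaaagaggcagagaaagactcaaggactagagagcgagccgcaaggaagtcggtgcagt
CDT1: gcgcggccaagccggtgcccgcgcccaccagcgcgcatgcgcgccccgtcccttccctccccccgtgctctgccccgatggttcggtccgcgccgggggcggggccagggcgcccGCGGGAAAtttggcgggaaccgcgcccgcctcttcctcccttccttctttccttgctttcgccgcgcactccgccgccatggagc
All 4 mitosis promoters hold a CHR, whose first base lies at -111 in HJURP, -3 in CDCA3, -18 in CENPA and -29 in PLK1, counted from the gene's start. None of the 3 S phase promoters holds one. The 7 genes were picked to show these motifs, so this split among them is no finding. DTL has an E2F-like motif at -8, E2F2 has 3 of them at -77, -42 and -38, the last pair overlapping on opposite strands, and CDT1 has 1 in this stretch at -35.

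The motifs were also counted over whole sets of promoters. In the 300-base windows of the RefSeq table, 86 of 243 genes called lower by at least 2-fold held a CHR, which is 35.4%. The share was 11.3% of 256 genes called higher by at least 2-fold, 8.81% of 5484 not called, 9.86% of all 8566 tested genes with a promoter and 15.4% of all 27305 promoters in the table. On the mitosis list 25 of 37 promoters held it (67.6%), and on the replication list 3 of 42 (7.14%). The E2F-like motif ran the other way between these lists, in 21 of 42 replication promoters (50%) and in 5 of 37 mitosis promoters (13.5%), against 10.8% of all tested genes. CCAAT stood in 55.6% of the lower and 34.0% of the higher genes, and in 37.5% of all tested. A p53 half-site was found in 8.2% of the higher, 7.82% of the lower and 4.56% of the uncalled genes. A full p53 site, a pair of half-sites up to 13 bases apart, was in 0 of the 256 higher genes' windows and in 1 of all 8566. A match in these windows describes letters only, and says nothing of binding there or elsewhere.

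**Figure D3:**
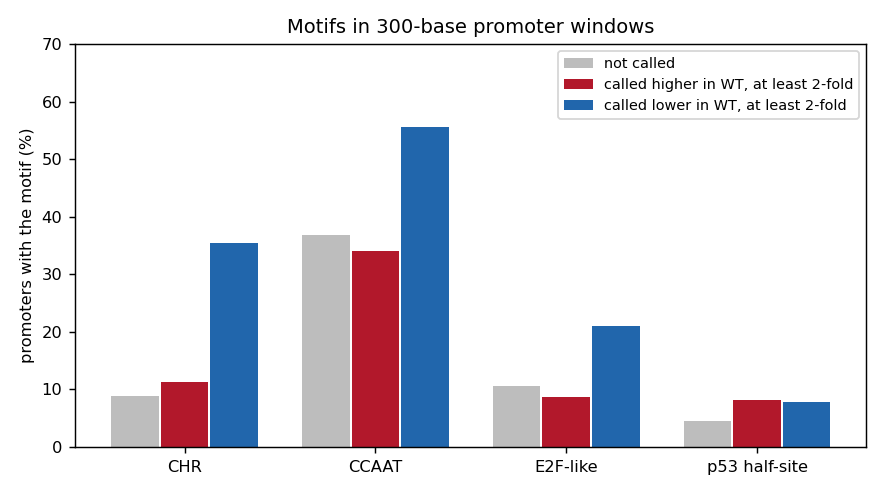
Share of promoter windows of 300 bases that hold each of 4 motifs (y axis, percent), for genes not called (grey) and genes called higher (red) or lower (blue) in WT at 10 nM by at least 2-fold. The CHR stands in 35.4% of the lower genes against 8.81% of the uncalled ones.

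E2F factors and their DREAM partners were lower in part. Of 24 kept regulators, 14 were lower in WT (17.5% over all features), 2 were higher (18.3%) and the rest were not called. The median was -0.64. E2F2, an activator of S phase genes, had 7.58, 6.96 and 6.76 in WT and 8.96, 9.05 and 9.13 in p53KO cells. It was lower by 1.95 on the log2 scale (SE 0.25, adjusted p = 7.9e-05). The other activator E2F1 differed by -1.15 ± 0.16 and the repressor E2F8 by -1.64 ± 0.18. FBXO5, the inhibitor of the anaphase-promoting complex that is also called EMI1, had 8.82, 7.63 and 7.82 against 10.73, 10.53 and 10.56, a difference of -2.51 ± 0.21 (adjusted p = 2.8e-06). CDC25A, the phosphatase that activates CDK2, differed by -1.90 ± 0.24, LIN9, a core subunit of the MuvB complex, by -1.82 ± 0.21 and CCNE1, cyclin E1, by -0.95 ± 0.10. The genes that were higher were TFDP2, an E2F partner, by 0.69, and RBL2, which encodes the DREAM pocket protein p130, by 0.43. RB1, E2F3, E2F4 and E2F5 were not called, at -0.12, -0.07, -0.19 and -0.06.

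DNA replication genes were lower in WT in 41 of 47 kept members (17.5% over all features) and higher in 2 (18.3%). Their median was -1.05. DTL, which directs the CUL4 ubiquitin ligase to chromatin-bound CDT1, had 7.88, 6.91 and 6.82 in WT and 9.52, 9.47 and 9.62 in p53KO cells, a difference of -2.33 ± 0.29 (adjusted p = 5.7e-05). CDT1, which loads the MCM helicase at origins, had 8.78, 7.77 and 7.78 against 10.32, 10.25 and 10.43, a difference of -2.22 ± 0.25 (adjusted p = 3.5e-05). MCM10, needed to start the helicase, had 7.50, 6.20 and 6.30 against 8.88, 8.92 and 8.90. In all 3 genes WT replicate 1 lay nearer to the p53KO arrays than WT replicates 2 and 3 did, and the groups did not overlap. The helicase subunit genes MCM2 to MCM7 differed by -1.37 to -0.79. CLSPN and TIMELESS, whose products hold the fork together, differed by -1.09 ± 0.10 and -1.08 ± 0.13. CLSPN was detected on 1 of 3 WT arrays and on all p53KO arrays, so the size of its difference is set against background. UNG, which removes uracil from DNA, differed by -1.05 ± 0.09, with -1.09 and -0.08 on its other probes. The 2 members that were higher in WT were PCNA, the sliding clamp, by 0.76, and LIG1, the ligase that joins Okazaki fragments, by 0.52. Both also act in DNA repair.

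Mitosis genes moved as a block, with WT lower in 43 of 43 kept genes, against 17.5% of all features. They ran from CENPA at -2.47 to BUB3 at -0.36, with a median of -1.74. CCNA2, cyclin A2, had 9.70, 8.34 and 8.48 in WT and 11.08, 11.20 and 10.99 in p53KO cells. It differed by -2.25 ± 0.32 (adjusted p = 1.7e-04), and CCNB1, cyclin B1, by -2.05 ± 0.21 (adjusted p = 1.6e-05). PLK1, the polo-like kinase of mitotic entry, had 5.71, 5.28 and 5.56 against 7.49, 7.51 and 7.54, a difference of -2.0 ± 0.28 (adjusted p = 1.3e-04). CDK1, the kinase that cyclins A and B activate, differed by less, -1.04 ± 0.20 (adjusted p = 0.0012), and by -1.10 on its second probe. At the centromere, HJURP, the chaperone that deposits CENP-A, had 8.01, 6.73 and 6.93 against 9.90, 9.83 and 9.83, a difference of -2.63 ± 0.32 (adjusted p = 5.8e-05). CENPA, the centromeric histone itself, had 8.03, 6.70 and 6.84 against 9.74, 9.69 and 9.55. SGO1, which guards centromere cohesion, differed by -2.0 ± 0.26 and BIRC5, which encodes survivin of the chromosomal passenger complex, by -1.74 ± 0.22. In a bulk sample, fewer cells in mitosis and less of these RNAs per cell cannot be told apart.

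Among homologous recombination and checkpoint genes, WT was lower in 14 of 21 kept genes and higher in 0, against 17.5% and 18.3% of all features. Their median was -1.05. RAD51AP1, which acts in homologous recombination, had 8.33, 7.09 and 7.21 in WT and 9.73, 9.57 and 9.56 in p53KO cells, a difference of -2.08 ± 0.28 (adjusted p = 1.2e-04). The helicase gene BLM differed by -1.53 ± 0.24, the checkpoint kinase gene CHEK1 by -1.05 ± 0.13, and TOPBP1, an activator of ATR, by -1.17 ± 0.18. The 7 uncalled members were the kinase genes ATM (0.19), ATR (-0.12) and CHEK2 (-0.04), the break-binding MRE11 (-0.18), RAD50 (-0.12) and NBN (-0.24), and XRCC3 (-0.23).

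The cell cycle difference was not equal in the 3 pairs. The median of the 43 mitosis genes was -1.13 in pair 1, -2.05 in pair 2 and -2.0 in pair 3, and that of the 47 replication genes -0.66, -1.14 and -1.23. The 17 arrest and feedback genes gave 1.57, 1.64 and 1.67. The unequal arrays were those of WT cells: mean mitosis levels were 8.98, 8.10 and 8.13 in WT and 10.04, 10.04 and 9.98 in p53KO cells. WT replicate 1 was thus higher in mitosis genes than WT replicates 2 and 3 while its p53 targets were at similar levels. All 43 mitosis genes were below their p53KO partner in each of the 3 pairs. The 1 nM arrays also differed between pairs, with mitosis medians of -0.57, -2.33 and -1.39. Pairs of untreated arrays ran from -0.27 to -0.24 and those at 100 nM from -0.30 to -0.21.

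**Figure D4:**
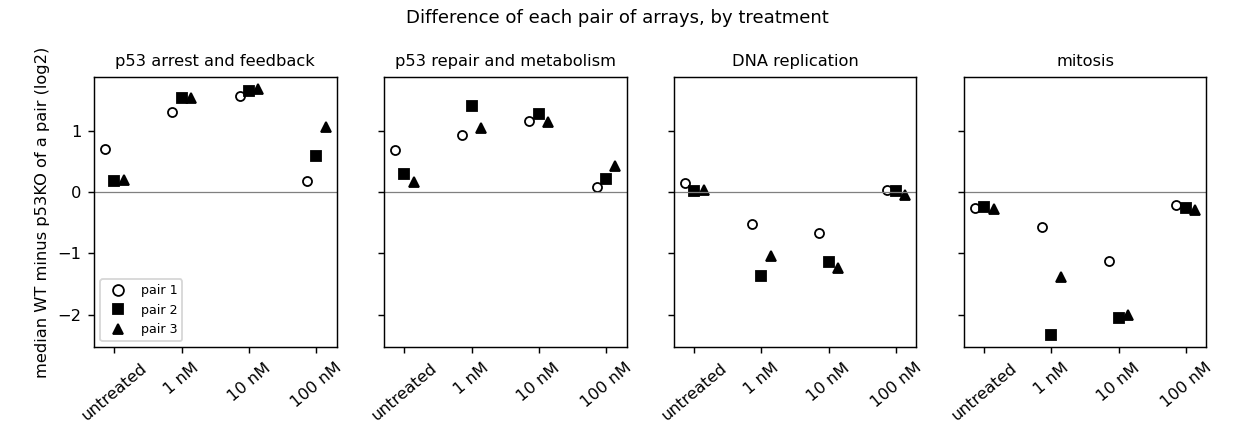
Median WT minus p53KO difference (y axis, log2) of 4 gene lists in each pair of arrays with the same replicate number, in untreated cells and at 1, 10 and 100 nM actinomycin D (x axis). At 10 nM the 3 pairs lie from 1.57 to 1.67 for arrest genes but from -2.05 to -1.13 for mitosis genes.

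To see how much of the 10 nM difference was there without the drug, the genotype difference at 10 nM was tested against that in untreated cells, as an interaction that shares no array between its sides. It was called in 1009 features (9.18%), with a shift in WT's favour in 462 (4.2%) and in p53KO's in 547 (4.97%). Of the 2013 features higher in WT at 10 nM, 685 were also called higher in untreated cells, where 8.59% of all features were, and 406 were further higher at 10 nM. Of the 1929 lower, 418 were already lower, against 6.23% of all features, and 476 were further lower. Both sets were chosen by the 10 nM difference, which also enters the interaction, so the choice itself favours further shifts. Some p53 targets had a genotype difference in untreated cells that was then larger at 10 nM: GDF15 went from 2.37 to 4.62, CDKN1A from 1.94 to 3.36 and SESN1 from 1.51 to 3.76. The untreated pairs were unequal here. GDF15 had 12.70, 10.27 and 10.15 in untreated WT and 9.46, 8.15 and 8.38 in untreated p53KO cells, and the median of the arrest list was 0.70, 0.18 and 0.19 in the 3 pairs. Without the first untreated arrays the interaction was called in 711 features. Others had values near 0 in untreated cells. MDM2 differed by 0.14 ± 0.16 in untreated cells, and its interaction was 2.09 ± 0.22 (adjusted p = 6.4e-04). TIGAR had -0.13 untreated and an interaction of 1.66 ± 0.20 (adjusted p = 0.0013), and FBXW7 0.25 and 1.96 ± 0.19 (adjusted p = 4.6e-04). DTL had 0.06 and -2.39 ± 0.41 (adjusted p = 0.0050), E2F2 0.35 and -2.29 ± 0.35 (adjusted p = 0.0035), E2F8 0.19 and -1.83 ± 0.26 (adjusted p = 0.0024). CYP4F3, a fatty acid hydroxylase gene, had 0.60 and 2.98 ± 0.36 (adjusted p = 0.0012). It was detected on 1 of 3 p53KO arrays at 10 nM, so the size of its difference is set against background. MYBPHL, a myosin-binding protein gene that was not detected on any p53KO array at 10 nM, had 0.52 and 2.54 ± 0.39 (adjusted p = 0.0035). The interactions of TIGAR, FBXW7, DTL, E2F2, E2F8, CYP4F3 and MYBPHL were called under each of the 13 or 14 alternative settings that could be run for them. Those of GDF15 and CDKN1A were not called without the pairing or with all 30 arrays in the fit, nor was that of CDKN1A with the mean of its probes. Those of MDM2 and SESN1 were not called with all 30 arrays. That fit takes in the nutlin-3 arrays numbered 3, whose p53 targets went against their labels. On those arrays MDM2 had 5.31 in WT and 7.32 in p53KO cells. Their part in the lost calls was not tested.

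By list, the interaction with the untreated state was called lower in 35 of 43 mitosis genes, 38 of 47 replication genes, 11 of 21 recombination genes and 10 of 24 E2F and DREAM genes, and higher in 12 of 17 arrest genes, 10 of 15 secreted, 7 of 15 apoptosis and 7 of 18 repair genes. Over all features the interaction was called lower in 4.97% and higher in 4.2%. The list counts stand on few arrays. Without the second pair the mitosis count was 2 and the replication count 20, without the third pair 3 and 18, and without the first 37 and 38. Without the first untreated arrays alone they were 17 and 27, and the arrest count was 14. The mitosis difference at 10 nM itself was called in 42 or 43 of 43 genes under all 18 alternatives. Over all features the interaction count was 337 without the second pair and 382 without the third.

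Against 1 nM, the same interaction was called by limma in 0 of 10996 features (lowest adjusted p = 0.12), with 421 at an unadjusted p under 0.05. The 1 nM p53KO array of replicate 2 was weak, with a 75th percentile of raw intensity of 133.1 and 11338 detected probes. Replicates 1 and 3 had 234.6 and 252.8, and 12287 and 12106. A fit without the weak array was not run. The lack of calls does not show that the differences at the doses are equal. The differences at both doses were close in size: 3.48 and 3.36 for CDKN1A at 1 and 10 nM, 2.37 and 2.23 for MDM2, 4.36 and 4.62 for GDF15, -1.91 and -2.25 for CCNA2, and -2.10 and -2.33 for DTL. Of the features called at 10 nM, 1503 of 2013 higher and 1411 of 1929 lower were called in the same direction at 1 nM, where 3620 features were called in all (32.9%). FBXW7, detected on all of these arrays, had 1.34 and 2.21, and its interaction was not called (adjusted p = 0.41).

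Against 100 nM, where raw intensities were lower in both genotypes, the interaction was called in 1729 features (15.7%), 853 higher at 10 nM (7.76%) and 876 lower (7.97%). In all, 1720 features differed between the genotypes at 100 nM (15.6%), 890 higher in WT (8.09%) and 830 lower (7.55%). The CDKN1A difference was 1.18 there, MDM2 0.29 and TIGAR 0.18, with interactions of 2.18 ± 0.19 (adjusted p = 8.1e-05), 1.95 ± 0.22 (adjusted p = 7.2e-04) and 1.35 ± 0.20 (adjusted p = 0.0019). SESN1 and FBXW7 differed by 3.82 and 2.51 at 100 nM, and their interactions with 100 nM were not called (adjusted p = 0.94 and 0.33). Some genes that were higher in WT at 10 nM had small differences at 100 nM. ABCA1, a cholesterol exporter, had 6.68, 7.28 and 7.19 in WT cells at 10 nM and 4.36, 4.23 and 4.37 at 100 nM, where it was detected on no array, and p53KO cells ran from 4.23 to 4.31 over both doses. SUGCT, a mitochondrial CoA transferase gene, differed by 2.97 at 10 nM and 0.16 at 100 nM. SNAI2, a repressor of epithelial genes and a p53 target in mouse blood progenitors, ran the opposite way. It had 5.44, 5.15 and 4.8 in WT cells at 10 nM and 7.29, 7.47 and 7.54 at 100 nM, against 4.93, 4.85 and 4.43 and 4.54, 4.91 and 4.73 in p53KO cells, an interaction of -2.31 ± 0.18 (adjusted p = 3.8e-05). Each actinomycin D dose was tied to slides, and with slide as a block beside the pairs the count fell to 300. It was 553 without the second pair, 717 without the third and 239 without the second WT arrays of both doses, which lay on each other's slide.

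**Figure D5:**
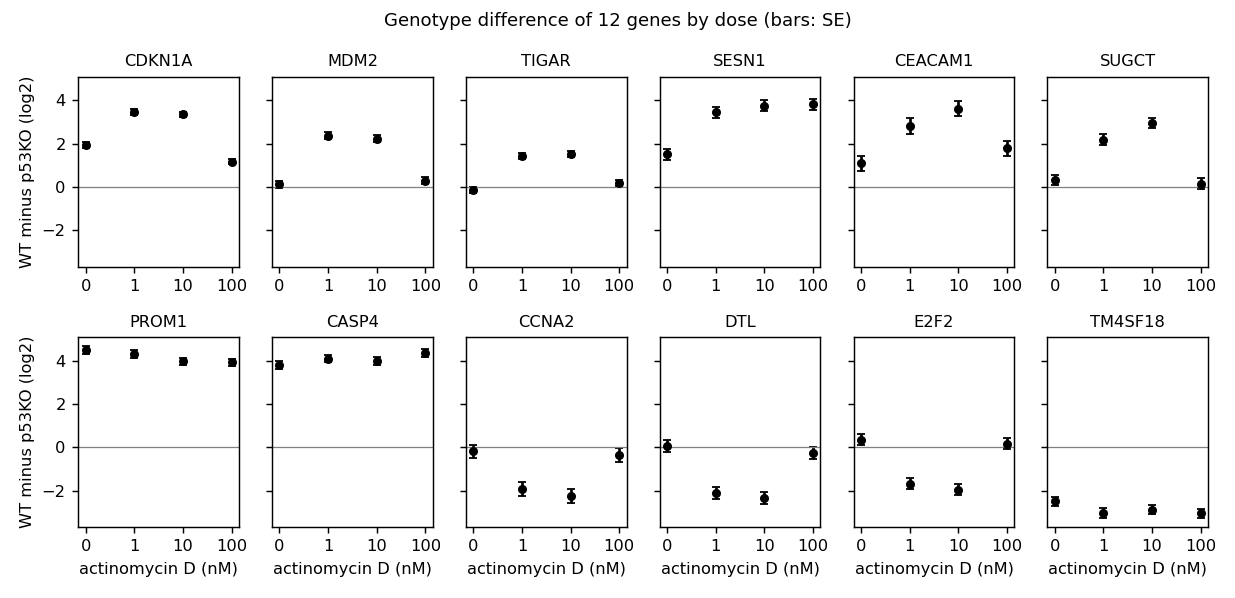
WT minus p53KO difference (y axis, log2, with SE bars) of 12 genes in untreated cells and at 1, 10 and 100 nM actinomycin D (x axis, doses evenly spaced). MDM2, TIGAR, CCNA2, DTL and E2F2 lie near 0 in untreated cells and at 100 nM, while PROM1, CASP4 and TM4SF18 differ at every dose.

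Some of the widest differences at 10 nM were also present without the drug. PROM1, which encodes the membrane glycoprotein CD133, had 8.21, 8.32 and 8.40 in WT cells and was not detected in p53KO cells, which puts WT at least 11.7-fold above (adjusted p = 2.5e-08). Its difference was 4.50 ± 0.18 in untreated cells. CASP4, an inflammatory caspase gene, differed by 3.98 ± 0.18 at 10 nM and by 3.79 ± 0.18 untreated, although its second probe gave 1.06 at 10 nM. EHF, an epithelial ETS factor, lay at least 6.77-fold above its p53KO level, with 2.99 at 10 nM and 3.05 untreated. TM4SF18 was not detected on any WT array and was at least 5.28-fold lower in WT (adjusted p = 1.5e-06), with -2.87 at 10 nM and -2.49 untreated. The interactions of these 4 genes with the untreated state were not called (adjusted p from 0.23 to 0.93). A clonal difference between the lines and an effect of p53 cannot be told apart from these arrays.

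Epithelial genes were higher in WT cells in 8 of 11 kept colon markers and lower in 0, against 18.3% and 17.5% of all features. Their median was 0.57. CEACAM1, EHF and PROM1 passed the detection filter only through the WT arrays, so the filter itself favoured a higher WT level in them. The called markers detected on all 6 arrays were KRT8, KRT18, KRT19, CDX2 and ELF3. CEACAM1, a cell adhesion molecule, had 7.67, 8.57 and 8.73 in WT and 4.33, 4.54 and 5.24 in p53KO cells, a difference of 3.62 ± 0.36 (adjusted p = 1.2e-05). It was detected on 1 of 3 p53KO arrays. KRT19, a simple epithelial keratin, differed by 0.57 ± 0.10 and ELF3, another epithelial ETS factor, by 0.61 ± 0.11, the latter not called without the pairing (adjusted p = 0.12). Of 21 colon markers with a probe, EPCAM, KRT8, KRT18, KRT19, CDX2, ELF3 and KLF5 were detected on all 6 arrays. CEACAM5, CEACAM6, VIL1, TFF3, CDX1, LGR5 and ASCL2 were detected on none, and 7 others on some. The summed linear level of the kept colon markers ran from 36811 to 41879 in WT and from 29360 to 31671 in p53KO cells. This sum is carried by its brightest probes, those of KRT19, KRT8 and EPCAM, and does not measure epithelial content.

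Markers of other cell types were mostly absent. Of 21 with a probe, 13 were detected on none of the 6 arrays, among them the T cell gene CD3E, the monocyte gene CD14, the endothelial genes VWF and CDH5, the fibroblast genes COL1A2, COL3A1 and DCN, and the muscle gene DES. The 5 detected on all were CD68, COL1A1, ACTA2, VIM and HBA1. Their summed linear level was 720 to 806 in WT and 592 to 606 in p53KO cells. The sum adds probes of unlike brightness and does not measure a share of cells, and ACTA2 was its only member called higher in WT. ACTA2, smooth muscle actin and a known p53 target, was higher in WT by 3.49 ± 0.17, with 8.21, 8.68 and 8.84 against 4.99, 4.92 and 5.35. The intermediate filament gene VIM was lower by 1.34 on the log2 scale and the globin gene HBA1 by 1.38.

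Genes that make ribosomes, the first process that low-dose actinomycin D affects, had list medians near 0. Over all features 18.3% were called higher in WT and 17.5% lower. Of 34 kept genes of RNA polymerase I and ribosome biogenesis, 5 were higher and 3 lower in WT, with a median of 0.02. NOLC1, a nucleolar chaperone of snoRNPs, had 10.20, 10.12 and 10.22 against 9.25, 9.10 and 9.02, a difference of 1.06 ± 0.15 (adjusted p = 1.9e-04). Its difference in untreated cells was 1.04. BOP1, which processes large-subunit RNA, differed by 0.63 ± 0.13, and TAF1A, a subunit of the selectivity factor SL1, by -0.68 ± 0.11, and neither was called without the pairing (adjusted p = 0.16 and 0.12). TAF1C, of the same factor, had 0.32 on its brightest probe and -0.39 on the other. Of 59 ribosomal protein genes, 4 were higher and 5 lower, with a median of 0.00. RPL23A differed by -0.47 ± 0.08 and RPL37 by -0.48 ± 0.09, whereas RPL34 had 0.55 on 1 probe and -0.13 on the other. Ribosomal protein genes have many processed copies in the genome, and a probe can take up RNA of those copies.

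Of 22 kept immediate early genes, 10 were lower in WT, where 17.5% of all features were, and 4 were higher, a share like the 18.3% of all features. Their median was -0.43. ATF3, a stress-induced repressor and p53 target, had 11.21, 10.88 and 10.79 in WT and 9.52, 8.97 and 9.23 in p53KO cells, a difference of 1.72 ± 0.11 (adjusted p = 4.2e-07), although not without the pairing (adjusted p = 0.088). Its difference in untreated cells was 0.03. MYC was higher by 0.73 ± 0.11 and IER5 by 0.58 ± 0.09. KLF6 and KLF4, zinc finger factors of growth arrest and differentiation, were lower in WT, at -1.26 ± 0.16 and -1.21 ± 0.14, and EGR1, the serum response factor target, had -1.23.

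Interferon response genes were higher in WT in 9 of 19 kept genes (18.3% over all features) and lower in 0 (17.5%). Their median was 0.37 at 10 nM beside 0.43 in untreated cells. TAP1, the peptide transporter of antigen presentation and a p53 target, had 11.92, 12.19 and 11.77 against 9.77, 9.86 and 9.72. Its difference of 2.17 ± 0.14 (adjusted p = 3.2e-07) was 0.87 in untreated cells, with an interaction of 1.31 ± 0.19 (adjusted p = 0.0030) that was not called with all 30 arrays. ISG15, a ubiquitin-like modifier, differed by 1.06 ± 0.12, IFI35 by 1.08 ± 0.13 and IRF1, an interferon-induced activator, by 0.97 ± 0.15, the last not called without the pairing (adjusted p = 0.063). Of 14 kept NF-kB and inflammatory genes, 2 were higher and 0 lower, with a median of 0.11. These were TNFAIP2 at 0.57 ± 0.13, and CD83 at 0.29 ± 0.11, which was not called when any 1 replicate was left out (adjusted p from 0.14 to 0.16).

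In the integrated stress and unfolded protein response 1 of 22 kept genes was higher and 4 were lower, with a median of -0.10, against 18.3% and 17.5% of all features. DDIT3, which encodes the stress factor CHOP, had 7.79, 7.74 and 7.76 in WT and 8.76, 8.70 and 8.73 in p53KO cells, a difference of -0.97 ± 0.18 (adjusted p = 0.0011), not called without the pairing (adjusted p = 0.21). Of 16 heat shock genes, 2 were lower, DNAJB1 at -0.64 ± 0.11 and HSPA2 at -0.59 ± 0.15, the latter not called without replicate 2 or 3 (adjusted p = 0.054 and 0.061), and 0 were higher. HSPA2 was detected on 1 of 3 WT arrays, so its value is set against background. Of 14 cholesterol synthesis genes, 5 were lower, against 17.5% of all features, and 0 higher, with a median of -0.19. They were led by HMGCS1, the entry enzyme of the pathway, at -1.04 ± 0.12 (adjusted p = 3.3e-05) and INSIG1, its feedback regulator, at -1.03 ± 0.17 (adjusted p = 4.3e-04). Of 8 kept metallothionein and zinc genes, 4 were lower and 3 higher, with a median of -0.30. The metallothioneins, small zinc-binding proteins, went both ways. MT1X, MT1F, MT1G and MT2A were lower in WT, at -0.51 ± 0.11, -0.57 ± 0.14, -0.61 ± 0.16 and -0.33 ± 0.10, and MT1E was higher, at 0.54 ± 0.13. The zinc exporter gene SLC30A1 and the importer gene SLC39A10 were higher, at 0.65 ± 0.15 and 0.51 ± 0.11. Without the pairing 0 of the 4 lower genes were called, with adjusted p of 0.30 for MT1F and 0.084 for MT1X, and SLC39A10 was not called (adjusted p = 0.11). MT1F was not called without replicate 3 (adjusted p = 0.060), MT1E without replicate 2 (adjusted p = 0.052) and SLC30A1 without replicate 1 (adjusted p = 0.055). Metallothionein probes can take up RNA of near-identical family members.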

How the data were processed

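Total RNA was extracted with Trizol and measured on Illumina bead arrays, per the labels' protocols. The deposited raw table holds, per the file headers, each probe's average signal intensity and a detection p-value, and BeadStudio is named, with no version, in the submitters' processing notes. The authors' deposited processed table and value matrix hold normalised intensity that was equal on all 22177 probes within a relative tolerance of 0.001. Both tables also hold 26 arrays of other samples, which were not used. FDXR and BTG2 are not analysed here.

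Raw intensity was background-corrected and quantile-normalised with neqc (limma 3.58.1, R 4.3.3; offset 16, background estimated from the deposited detection p-values) and put on the log2 scale. Probes carried 1 gene symbol in 21101 cases and none in 1076, and symbols were updated through gene IDs. A feature was kept where the detection p-value was under 0.01 on all 3 arrays of WT or p53KO at 10 nM, and the brightest kept probe stood for a gene. That left 10424 features with a symbol and 572 without.

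One limma model over 24 arrays (untreated, 1, 10 and 100 nM) held 12 pair blocks and a WT minus p53KO effect per treatment, with 8 residual degrees of freedom and Benjamini-Hochberg adjustment over all 10996 features. Nutlin-3 arrays were left out of this model because earlier results showed their replicates numbered 3 to go against their labels. The p53 target levels here did the same. Same-numbered arrays deviated together from their group means at 10 nM (r of 0.382, 0.366 and 0.431, and at least 0.239 over the 4 treatments), so the numbers were taken as pairs. Where a group was not detected on any array, the fold is a bound against the lowest detected signal.

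Genes were named by rule: the 12 highest and 12 lowest called differences whose groups did not overlap, the 5 highest and 5 lowest of each interaction, up to 5 called members per list by adjusted p, and a fixed set of p53 and cell cycle genes. List members given beyond these were chosen after their values were seen. The members and lists were chosen with earlier results of these data known. On simulated data of 10996 features with 100 genes changed at each size, the 10 nM test recovered 91 at a log2 change of 1 and 100 at 2, with 9 false calls. The simulated noise was independent between features and held no slide effect, so the 9 false calls are not an error rate for these data. Alternatives changed the pairing, the arrays fitted, the slide term, the background correction, the detection filter, the table and the probe rule, or left out replicates.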

Additional observations from a re-analysis of the deposited data

Results flagged for a closer look

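The WT minus p53KO difference at 10 nM differed from that in untreated cells in 1009 features and from that at 100 nM in 1729, by a test of the difference itself. The genes named by rule for such changes are given here as values.

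Against untreated cells, the difference was larger in WT's favour for CYP4F3 by 2.98, SUGCT by 2.64, MYBPHL by 2.54, CEACAM1 by 2.53 and TP53I3 by 2.48 on the log2 scale. It moved in p53KO's favour for HJURP (-2.41), DTL (-2.39), E2F2 (-2.29), FBXO5 (-2.28) and MCM10 (-2.15). CYP4F3, MYBPHL, DTL and E2F2 were called under every alternative run for them. CEACAM1 was not called under 5 of 13, among them the fit without replicate 2 (highest adjusted p = 0.29). MCM10 was not called under 4 of 14 (highest adjusted p = 0.080), and HJURP and TP53I3 under 2 each (0.090 and 0.46). SUGCT and FBXO5 were not called with all 30 arrays (0.082 and 0.053). That fit holds the nutlin-3 arrays numbered 3, which went against their labels, and TP53I3 had its highest adjusted p there. The part of those arrays in this was not tested. MYBPHL was detected on no untreated p53KO array and on 1 of 3 untreated WT arrays, and CEACAM1 on no untreated p53KO array. CYP4F3 and CEACAM1 were each detected on 1 of 3 p53KO arrays at 10 nM. The values of these genes are thus set against background.

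Against 100 nM, the difference was larger in WT's favour for SUGCT by 2.82, ABCA1 by 2.70, SORCS2 by 2.55, MYBPHL by 2.46 and PLCL2, a phospholipase C-like gene, by 2.42. It moved in p53KO's favour for CDT1 (-2.32), SNAI2 (-2.31), FBXO5 (-2.28), MCM10 (-2.21) and SKA1 (-2.21). MYBPHL and SNAI2 were called under every alternative run for them, and SORCS2 in 4 of 13 (highest adjusted p = 0.24). MCM10 was not called under 4 of 14 (highest adjusted p = 0.13), CDT1 with slide fixed (0.058), and SUGCT, ABCA1, PLCL2, FBXO5 and SKA1 with all 30 arrays. ABCA1, SORCS2, MYBPHL and PLCL2 were detected on no p53KO array at either dose, and ABCA1 and PLCL2 on no WT array at 100 nM, so their values are set against background and have no exact size or order. At 10 nM alone WT was at least 4.90-fold above p53KO for ABCA1, 10.6-fold for SORCS2, 5.64-fold for MYBPHL and 4.88-fold for PLCL2.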

How the results depend on the processing

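Over 18 alternatives at 10 nM, 1940 of 2036 values of 114 named genes kept their direction and their side of the threshold, 95 were no longer called, 0 were newly called, and TAF1C reversed to -0.03 with the mean of its probes. Of 342 list counts, 299 stayed within 1.5 times.

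The 3942 calls at 10 nM became 2169 with no replicate block, 2558 with all 30 arrays, 2422 with slide as a fixed block and no pairing, and from 2495 to 3075 with a replicate left out. The 1009 interactions with untreated cells became 187, 171 and 267 in those 3 fits, 645 with slide and replicate block, 320 without WT replicate 2 of both 10 and 100 nM, and 337 to 826 with a replicate left out. The 1729 with 100 nM became 360, 161, 205, 300 and 239 in the same order, and 553 to 1335. Those with 1 nM were 0 throughout. Of 272 named interaction values, 34 were no longer called and 0 reversed. The fit over all 30 arrays holds the nutlin-3 arrays numbered 3, which went against their labels. The part of those arrays in its counts was not tested.

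Among the small lists, with no replicate block, ribosome biogenesis genes higher in WT went from 5 to 1, ribosomal protein genes lower from 5 to 2, immediate early lower from 10 to 5, NF-kB higher from 2 to 1, stress lower from 4 to 1, metallothionein and zinc lower from 4 to 0, and colon higher from 8 to 5. With all 30 arrays the counts were 0 for NF-kB, 5 for interferon (from 9), 1 for heat shock lower (from 2), 3 for cholesterol lower (from 5) and 5 for colon. With slide fixed they were 2 for ribosome biogenesis, 3 for ribosomal proteins, and 1 each for NF-kB, heat shock and metallothionein. Without WT replicate 2 of both doses they were 2 for ribosome biogenesis, 2 for stress, and 1 each for NF-kB and heat shock. With no detection filter NF-kB was 1, and detection on all 6 arrays gave 1 for heat shock and 5 for colon. With the 6 arrays alone NF-kB was 5 paired and 4 unpaired, 5 when they were also normalised alone, and 4 without the 100 nM arrays, and metallothionein was 1 unpaired. Slide 5 alone gave 1 for heat shock and 0 for metallothionein. Leaving out a replicate gave 2 to 3 for ribosome biogenesis, 1 each time for NF-kB, 2 to 3 for stress, 1 to 2 for heat shock and 1 to 3 for metallothionein. The cause was not tested. With 3 arrays a group, the number of arrays limits the precision.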
